A study of Drosophila melanogaster with 60 samples.

Results

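The Hox transcription factor Ultrabithorax (Ubx) was mapped by chromatin immunoprecipitation and sequencing (ChIP-seq) in nuclei of the Drosophila melanogaster embryonic mesoderm, and the results below set 2 windows of embryogenesis side by side. The members are the 5 peak lists called on single libraries, 3 from early embryos (replicates R, R2 and S) and 2 from late embryos (R and S). They are 5 of the 35 immunoprecipitates among the 60 samples of the series. The early group covers stages 10 to 13 and the late group stages 14 to 17. All 5 libraries come from the genotype labelled twi-INTACT, in which nuclei of one tissue carry a tag by which they are pulled out of the whole embryo, and all were precipitated with a home-made guinea pig antibody against Ubx. The genotype names twist (twi), a gene of the early mesoderm, and the labels do not describe how it drives the tag, so which of the later mesodermal tissues still carry tagged nuclei is not given. The 2 stages therefore differ in age and not in genotype or treatment. The labels do not say whether replicates came from separate embryo collections, so the p-values measure the spread between these lists, which may be technical.

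Ubx is a homeodomain protein that gives posterior thoracic and anterior abdominal segments their identity. On naked DNA a homeodomain binds short AT-rich sites built around TAATTA, which many other homeodomain proteins also bind. In the cell Ubx gains selectivity by binding next to Extradenticle (Exd), whose entry into the nucleus depends on Homothorax (Hth), and the composite Hox-Exd site is commonly written TGATTNAT. In the mesoderm Ubx shapes the pattern of somatic muscles, the heart and the visceral muscle of the midgut, where it drives decapentaplegic (dpp). The early window spans specification of the muscle lineages, and the late window spans their fusion and differentiation.

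A peak here is an interval in which the precipitated reads stood above background, with a fold over background, a −log10 q value and a score, all deposited by the authors on genome build dm6. The early R list held 3015 peaks, early R2 44627 and early S 9415, while late R held 9865 and late S 12237. Because list length differed so widely, each list was cut to its 3015 best-scored peaks for the main comparisons (equal numbers), and the full lists are given beside them. Early R2 stood apart: its peaks covered 9.15 Mb, against 0.457 to 2.10 Mb in the other lists, and touched 82.6% of protein-coding genes, and every peak in it carries a name with the replicate letter S. It was not a copy of early S, since the pair had 0 identical peaks and no pair of lists had more than 4. The lowest score in each full list was 10, which stands for a −log10 q of 1, so all 5 lists ended at the same threshold. Read numbers per library are not given in the sources used here, so the depth behind a peak is unknown.

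The labelled tissue could be checked only through acetylated histone H3 lysine 27 (H3K27ac), a mark of active promoters and enhancers, in 4 lists from wild-type mesoderm. Of 8 early mesoderm genes, 7 and 2 had an H3K27ac peak at their start in the early lists (R1 and R2), and 5 and 0 in the late lists (R2 and R3), with twi in none of them. Of 8 genes of differentiated muscle the counts were 3 and 1 early and 8 and 2 late, and of 8 neuronal genes 3 and 1 early and 8 and 0 late. Across all protein-coding genes the share was 54.5% and 37.8% early and 88.4% and 21.9% late. Early R1 thus held more of the mesoderm genes than of the neuronal ones, and late R2 more of the neuronal ones. Late R2 also held 4 of 4 hemocyte genes, 4 of 4 of epidermis and trachea, 2 of 2 of gut, 3 of 3 of germ line and 3 of 4 of glia. Early R1 held 1, 1, 1, 3 and 2 of these. Early R2 held 2 of the germ line genes only, and late R3 1 of epidermis and trachea only. Late R2 therefore did not set mesoderm apart from other tissues. In bulk chromatin, a weaker peak cannot be told apart from the same binding in fewer nuclei.

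The positions that all 5 lists shared with the highest fold are shown first, because the later results refer back to their DNA. Overlapping peaks were merged into regions, which gave 12659 at equal numbers. In the 200-base windows below, read from dm6 on the plus strand and centred on the peaks of the leading regions that were not mostly repeat-masked, capitals mark TAATTA (homeodomain), TGATTNAT (Hox-Exd), GAGAG (GAGA factor) and GCCAT (Pho), each on either strand. Of all such windows tiled along the main chromosome arms, 12.4% hold TAATTA, 5.33% TGATTNAT, 21.4% GAGAG and 35.3% GCCAT.
spok intron, chr3R:3344750-3344949: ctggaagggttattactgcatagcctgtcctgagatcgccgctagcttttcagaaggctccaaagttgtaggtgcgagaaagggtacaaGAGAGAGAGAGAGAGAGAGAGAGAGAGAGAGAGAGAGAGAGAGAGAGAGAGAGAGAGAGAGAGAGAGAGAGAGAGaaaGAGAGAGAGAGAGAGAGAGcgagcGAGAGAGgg
near CG12535, chrX:3453132-3453331: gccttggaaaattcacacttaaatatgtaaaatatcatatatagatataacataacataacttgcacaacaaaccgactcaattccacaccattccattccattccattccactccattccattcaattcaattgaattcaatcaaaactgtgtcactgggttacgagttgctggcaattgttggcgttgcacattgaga
bru3 intron, chr3L:13629544-13629743: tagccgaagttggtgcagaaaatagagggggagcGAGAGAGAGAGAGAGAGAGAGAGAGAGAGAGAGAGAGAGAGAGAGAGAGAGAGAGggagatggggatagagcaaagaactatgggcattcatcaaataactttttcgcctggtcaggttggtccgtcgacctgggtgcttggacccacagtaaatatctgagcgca
Glg1 intron, chr3L:21498501-21498700: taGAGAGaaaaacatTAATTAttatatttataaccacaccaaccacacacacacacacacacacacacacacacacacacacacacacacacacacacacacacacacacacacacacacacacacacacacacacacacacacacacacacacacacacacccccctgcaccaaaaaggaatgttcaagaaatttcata
side intron, chr3R:27426106-27426305: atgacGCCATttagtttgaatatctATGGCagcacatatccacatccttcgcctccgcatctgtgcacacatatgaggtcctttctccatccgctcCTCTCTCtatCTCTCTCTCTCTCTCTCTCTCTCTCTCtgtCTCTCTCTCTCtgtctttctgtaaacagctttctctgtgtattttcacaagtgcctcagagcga
Ten-a intron, chrX:12090437-12090636: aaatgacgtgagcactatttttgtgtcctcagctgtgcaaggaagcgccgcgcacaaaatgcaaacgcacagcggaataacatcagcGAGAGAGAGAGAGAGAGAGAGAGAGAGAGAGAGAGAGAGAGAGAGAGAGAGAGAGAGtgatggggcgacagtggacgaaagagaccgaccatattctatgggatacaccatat
Of these 6 windows, 4 hold an unbroken run of GA or its complement CT, 77 bases long in the spok region, 57 in Ten-a, 55 in bru3 and 29 in side. The Glg1 window holds a CA run of 119 bases, and the window near CG12535 a run of CCATT of 23 bases. TGATTNAT is in none of them, and TAATTA is in the Glg1 window only. GAGAG matched 46 times in the spok window, 27 times in Ten-a, 26 in bru3 and 18 in side, and these overlapping matches come from the runs.

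These positions were strong at both stages. The spok intron (spookier, an enzyme of ecdysone synthesis) had a fold of 11.4, 11.9 and 9.34 in early R, R2 and S and of 10.4 and 18.7 in late R and S, and it ranked 2, 6, 2, 2 and 2 in the lists by fold. The X-linked region chrX:3453073-3453340, outside any gene and 4289 bases from the start of CG12535, had folds of 15.6, 5.57 and 19.3 early and 9.66 and 11.2 late. The stages overlapped at both. The bru3 intron (bruno 3, an RNA-binding protein) had folds of 7.30, 7.52 and 6.50 early and 6.10 and 10.6 late. The Glg1 intron (a Golgi glycoprotein), which also lies in the upstream stretch of the nuclear receptor gene Hr78, had 10.7, 6.39 and 7.05 early and 8.90 and 6.38 late. In side (sidestep, a cue for motor axons) the folds were 7.98, 5.99 and 5.83 early and 7.86 and 9.33 late, and in Ten-a (a teneurin of synaptic matching) 4.60, 7.77 and 4.62 early and 6.74 and 10.1 late. In each of these 6 regions the early and late values overlapped. All 6 also held a peak in both early neuronal Ubx lists, which are a different tissue of the same series. Nor were they particular to Ubx, since all 6 held a peak in the late mesoderm H3K27ac list R2, which covers 18.4% of the genome.

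**Figure D1:**
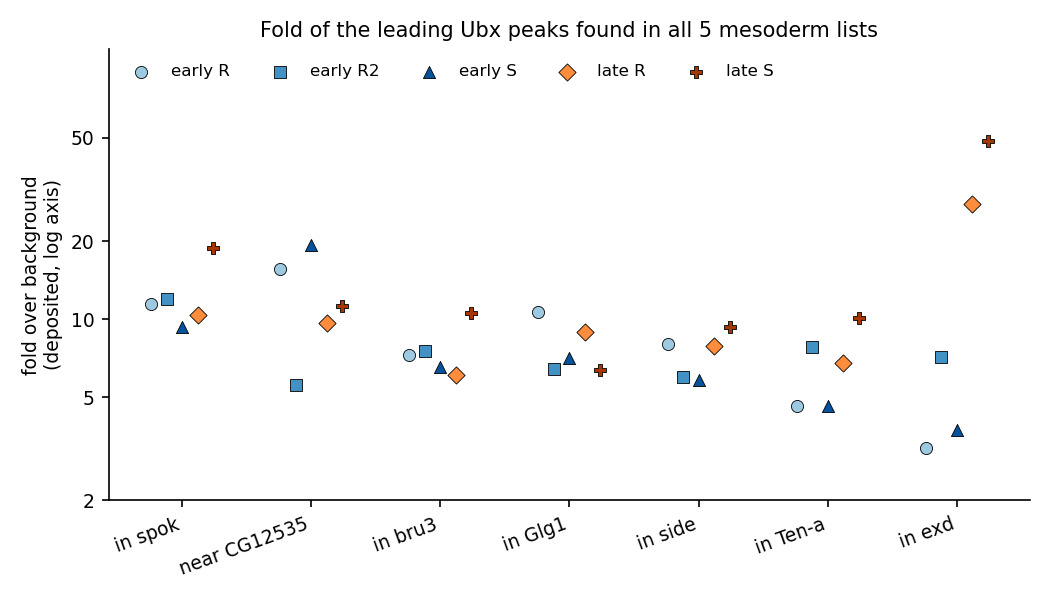
Fold over background (vertical log axis, as deposited) of the best Ubx peak in 7 regions found in all 5 mesoderm lists at equal numbers, with 1 marker per list. The early and late markers overlap in the first 6 regions, and in exd both late markers, at 27.7 and 48.9, lie above the early ones, at 3.18 to 7.17.

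Short tandem repeats marked the top of every list. A perfect run of at least 24 bases, of a unit of 1 to 6 bases, lay in the central 200 bases of 80% of the 20 highest-fold peaks in early R, 70% in early R2, 65% in early S, 80% in late R and 70% in late S. The share in genome tiles was 0.688%. Over the first 100 peaks by fold it was 35%, 36% and 20% early and 47% and 35% late, and it fell to between 0.895% and 2.29% from rank 1001 on. Over all 3015 peaks it was 2.88% ± 0.669 (SD, n = 3) early and 2.94% ± 0.590 (n = 2) late (exact permutation p = 0.8). The tandem repeats thus lay at the top of the lists of both stages, and their overall share differed by less than the spread between lists.

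**Figure D2:**
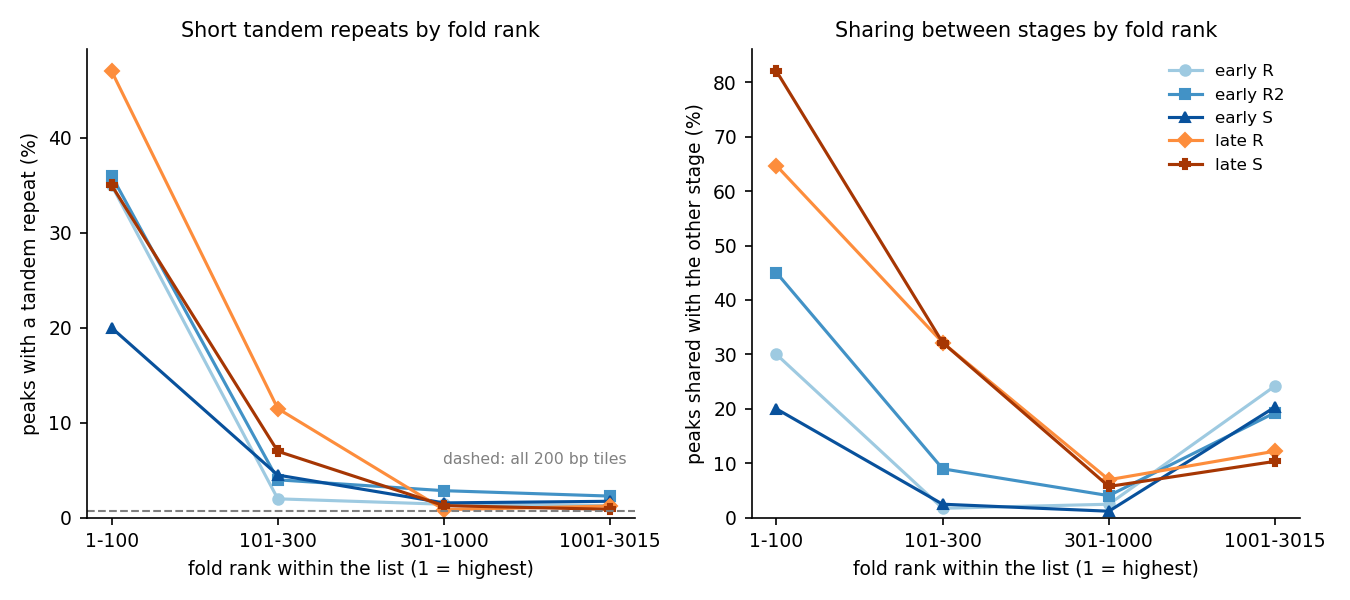
Left, the percentage of peaks with a short tandem repeat, and right, the percentage shared with the lists of the other stage (mean over those lists), by fold rank within each list of 3015 peaks. Tandem repeats lie in 20% to 47% of ranks 1 to 100 and in at most 2.29% from rank 1001, and sharing between stages is highest in ranks 1 to 100 in each list but early S, which has 20% there and 20.3% from rank 1001.

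Sharing between stages was also high in the top ranks. Of the 100 highest-fold peaks, on average 64.7% in late R and 82.0% in late S overlapped a peak of an early list by at least 1 base, and 30%, 45% and 20% of those in early R, R2 and S overlapped a peak of a late list. In ranks 301 to 1000 the shares were 7% and 5.76% late and 2.50%, 4.07% and 1.21% early. From rank 1001 on they rose again, to 12.2% and 10.4% late and 24.2%, 19.3% and 20.3% early. Shared peaks were thus more frequent at the highest and at the lowest folds than in ranks 301 to 1000.

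Lists of one stage shared about as many peaks with the other stage as with each other. At equal numbers a pair of lists from the same stage shared 15% of their peaks on average (4 pairs) and a pair from different stages 14.9% (6 pairs), a difference of 0.111 points (one-sided exact permutation p = 0.4, where 0.1 is the smallest that 10 arrangements allow). The 3 early pairs shared 14.9%, 12.6% and 13.2%, which lay inside the range of the pairs across stages, 12.4% to 17.0%. The late pair stood above all others at 19.4%. Without late S the difference was −1.96 points and without late R −0.724, so its sign rested on the late pair. With full lists the values were 13.3% within and 11.5% between stages (exact permutation p = 0.1).

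Most of this sharing lay in repeated DNA. Peaks with at least 50% soft-masked bases (repeat peaks) made up 24.6%, 23.4% and 19.5% of early R, R2 and S and 26.5% and 21.1% of late R and S. Without them, at 2274 peaks per list, sharing was 2.93% within and 2.70% between stages (exact permutation p = 0.3). When peaks with most of their 25-base words elsewhere in the genome and peaks with a tandem repeat were also left out, at 1878 peaks per list, it was 1.15% within and 0.932% between (exact permutation p = 0.2). In that set the late pair shared 32 peaks of late R (1.68%), early R2 and early S 25 peaks (1.33%), and early R and late R as many, 25 (1.33%). The late pair was again the highest, and the early pairs lay among the pairs across stages.

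**Figure D3:**
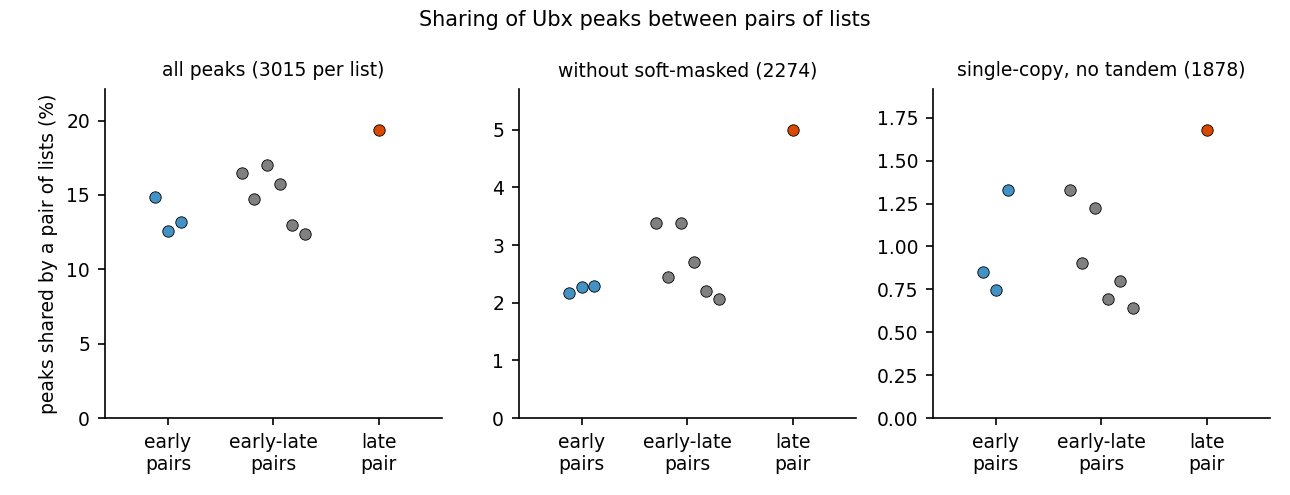
Percentage of Ubx peaks shared by each pair of lists (mean of both directions), for all peaks, without soft-masked peaks, and for single-copy peaks without a tandem repeat; each point is 1 pair. The 3 early pairs lie within the range of the 6 early-late pairs in each panel, and the late pair is the highest in each, at 19.4%, 4.99% and 1.68%.

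Of the 12659 merged regions, 93.3% were in 1 list, and 219 (1.73%) were in every list. Of the 219, 187 were repeat regions and 91 lay on the X chromosome. In the 10% of each arm next to the centromere lay all 13 on 2L, 9 of 11 on 2R and 13 of 17 on 3R, but 18 of 60 on 3L and 45 of 91 on X. R1A1 transposon copies overlapped 11 of them. Of 29 that were not repeat regions and lay on the main chromosomes, 15 were multicopy by their 25-base words and 10 single-copy with a tandem repeat. The other 4 had neither: the region near CG12535, the exd region, chrX:22433007-22433200 and chrX:23200701-23200867. These last 2 lie in proximal X, with folds of 2.03, 3.33 and 2.26 early and 2.71 and 4.74 late for the first, and 2.26, 3.07 and 2.53 early and 3.13 and 3.95 late for the second.

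The exd locus was the strongest peak of both late lists and had a lower fold in every early list. Exd is the cofactor that Ubx binds beside. The region, chrX:15992656-15994997, is 2342 bases long and begins 188 bases inside the gene. Its best fold was 3.18 in early R, 7.17 in early R2 and 3.72 in early S, but 27.7 in late R and 48.9 in late S. It ranked 1 in both late lists and 1075, 17 and 799 in the early ones, so the stages did not overlap. The late peaks had the same edges in both lists, 15992656 to 15994695 (2040 bases). The −log10 q was 1.65, 19.6 and 2.27 early and 387 and 477 late. Over the gene region, taken as 2 kb upstream of the start to the end of the gene, peaks covered 16.8% early and 33.8% late, which did not pass in limma's test across genes (adjusted p = 0.616). In neurons the best fold at exd was 3.99 and 10.5 early and 5.51 and 4.90 late, below both late mesoderm values, but among neuronal peaks it ranked 1090 and 32 early and 3 and 6 late, of 1336 and 936 peaks in the late lists. The region also held H3K27ac peaks in both early mesoderm lists (best fold 2.32 in R1 and 2.94 in R2) and in late R2 (2.71), but not in late R3. Peaks of trimethylated histone H3 lysine 27 lay in it in both early mesoderm lists (3.71 in R1 and 2.59 in R2) and in neither late one. No tandem repeat of 24 bases or more and no multicopy 25-base word lay in the region.

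Few positions were held by every list of one stage and no list of the other. At equal numbers 5 regions (0.0395%) were in all 3 early lists only and 99 (0.782%) in both late lists only. The early set needs 3 lists to meet and the late set 2, so these counts do not compare the stages. Of the 5 early regions 1 was not a repeat region, and of the 99 late regions 65 were not, of which 31 were multicopy and 34 neither multicopy nor tandem. The windows at the leading regions are shown with the same capitals.
early only, near Octbeta2R, chr3R:12610721-12610920: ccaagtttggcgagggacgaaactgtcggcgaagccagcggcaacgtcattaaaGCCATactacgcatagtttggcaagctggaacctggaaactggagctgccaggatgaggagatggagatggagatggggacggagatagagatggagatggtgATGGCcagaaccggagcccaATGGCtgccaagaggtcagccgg
late only, between Dfd and Scr, chr3R:6822572-6822771: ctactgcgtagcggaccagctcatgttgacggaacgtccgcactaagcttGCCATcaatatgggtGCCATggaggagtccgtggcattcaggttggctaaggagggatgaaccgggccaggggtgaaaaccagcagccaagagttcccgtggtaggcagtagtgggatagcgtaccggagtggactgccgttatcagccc
late only, between Dfd and Scr, chr3R:6820179-6820378: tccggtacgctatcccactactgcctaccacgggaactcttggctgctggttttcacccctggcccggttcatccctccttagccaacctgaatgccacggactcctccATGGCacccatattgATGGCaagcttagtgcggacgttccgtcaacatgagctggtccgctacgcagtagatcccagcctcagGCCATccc
The early region, chr3R:12610625-12610880, lies outside genes 15096 bases from the start of Octbeta2R (an octopamine receptor). Its folds in early R, R2 and S were 3.97, 3.93 and 3.97, and the full late R list held a peak there at a fold of 1.97, rank 7947. It holds GCCAT 3 times and neither homeodomain motif.

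The 2 late-only regions with the best ranks at equal numbers, leaving out repeat regions, are copies of each other. Both lie between the Hox genes Dfd and Scr, at chr3R:6822497-6822843 (folds 2.90 and 3.87 in late R and S) and chr3R:6820064-6820508 (2.42 and 3.97). Their windows share an unbroken run of 179 bases on opposite strands, and 100% and 98.6% of their 25-base words occur elsewhere, with a median of 2 copies, so that a read from one fits the other. They are not late only with full lists, where early S held a peak in both and early R2 in the second. Next came an intron of l(3)80Fj at chr3L:28001853-28002171, with 71.5% of words elsewhere and a median of 15 copies (folds 2.62 and 2.80). The leading single-copy region was an intron of Dys (dystrophin, which links the muscle cytoskeleton to the matrix) at chr3R:19558487-19558727, with folds of 2.32 and 2.85. It had no peak in any early mesoderm list, full lists included, but both early neuronal Ubx lists held one. A late-only single-copy region also lay in an intron of hth, chr3R:10595705-10596017, with folds of 2.30 and 2.55. With full lists the counts were 36 in the early lists only and 410 in the late lists only, of 69558 regions. Both early neuronal Ubx lists held a peak in 52 of the 99 late-only regions at equal numbers and in 38 of the 410. For all merged regions this was 1560 of 12659 at equal numbers and 7912 of 69558 with full lists. Late only thus refers to the mesoderm lists.

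Genes were scored as hit where a peak touched the gene or 2 kb upstream of it. At equal numbers the 13968 protein-coding genes were hit at 13.5%, 13.8% and 15.6% in early R, R2 and S and at 11.3% and 13.2% in late R and S. The early lists lay above the late ones, 14.3% ± 1.13 (SD, n = 3) against 12.2% ± 1.35 (n = 2), and the exact permutation p was 0.1, the smallest possible here, and 0.38 after adjustment over 76 list tests. With full lists and early R2 left out, where both late lists are the longer ones, the late lists were higher by 10.5 points. Genes hit in all 5 lists numbered 168 (1.2% of genes), in every early list 327 (2.34%), in every late list 556 (3.98%), in all early and no late list 54 (0.387%) and in both late and no early list 107 (0.766%). With full lists these counts were 703 (5.03%), 1145 (8.2%), 2632 (18.8%), 160 (1.15%) and 108 (0.773%). Long genes filled these sets: 12.8% of genes with a region over 20 kb were in every list, against 0.104% of those up to 5 kb. In several long genes the lists seldom hit the same place. The Ubx region held 15 merged regions of which 2 were in more than 1 list, Antp 19 of which 1 was, and hth 22 of which 1 was, while the single region of exd was in all 5.

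Among the 8 Hox genes, Antp and Ubx were hit in every list at equal numbers, beside 1.2% of all genes and 12.8% of those with regions over 20 kb. Abd-B was hit in the 3 early lists only, beside 0.387% of all genes and 1.74% of those with regions over 20 kb. Antp, which specifies the thorax, had a best fold of 3.40, 3.71 and 3.81 early and 2.31 and 2.84 late. Abd-B, which specifies the posterior abdomen, had 3.0, 3.38 and 4.35 early and no peak late, though both full late lists held one, at 1.99 and 2.54. No list of 3015 held a peak in abd-A, the neighbour of Ubx, and lab, Dfd and Scr were each hit in 2 or 3. With full lists all 8 were hit in both late lists and 4 in every early list (pb, Antp, Ubx and Abd-B), because early R had no peak in lab, Dfd, Scr and abd-A. The shares of all genes were 18.8% and 8.2%. Hox regions are long, 32.6 kb at the median, and of all genes with regions over 20 kb the shares were 79.0% and 47.7%.

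At its own gene the positions that most lists shared lay on coding exons. Of 57 merged regions in Ubx with full lists, those held by 4 of the 5 lists were chr3R:16658765-16659059, on the exon with the homeobox (16658775 to 16659073), and chr3R:16732702-16733600, on the first coding exon (16732698 to 16733463). The homeobox exon had folds of 3.78 in early R2, 4.49 in early S, 1.97 in late R and 2.81 in late S, and peaks covered 67.2%, 92.0%, 57.5% and 91.0% of it. The first coding exon had 3.69, 3.91, 2.10 and 2.55. Early R had no peak at either, and its best fold in the gene, 3.08, lay elsewhere, as did those of early R2 (4.22) and late R (2.35, in a repeat peak). Both early folds lay above both late folds, as did the median fold of whole lists. The homeobox exon was also peaked in all 4 neuronal Ubx lists, at 2.90 and 7.25 early and 4.69 and 4.51 late, rank 9 in both late ones. Of regions of at least 200 bases that were not mostly soft-masked and were held by 3, 4 or 5 full lists (490, 56 and 36), 6, 1 and 0 had both edges within 50 bases of a coding exon's edges, and the 1 in 4 lists was the homeobox exon. Peaks of trimethylated histone H3 lysine 27 (H3K27me3), the mark of Polycomb silencing, lay on both exons in all 4 mesoderm lists, at ranks 1 and 2 by fold in late R3, and the H3K27ac list of late R3 held them at ranks 2 and 1.

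The Hox cofactors exd and hth were hit in every list, beside 1.2% of all genes. The hth region is 134008 bases long, and of genes with regions over 20 kb 12.8% were in every list. The exd region has 6042 bases, and of genes with regions of 5 to 20 kb 0.287% were in every list. In hth the best fold was 4.24, 3.35 and 4.13 early and 2.30 and 2.97 late. The early lists lay above the late ones, as did the median fold of whole lists. By rank the stages overlapped, at 60, 1169 and 232 early and 805 and 383 late, and the best peak of late S was a repeat peak. The cofactor tio (tiptop, a paralogue of the zinc finger gene tsh) was hit in the late lists only, beside 0.766% of all genes, though not with full lists. Of 11 targets of Ubx known from other work, dpp and Antp were hit in every list, beside 1.2% of all genes and 12.8% of those with regions over 20 kb. The gene opa (odd-paired, a zinc finger factor of the visceral mesoderm) was hit in the early lists only, beside 0.387% of all genes. With full lists opa was in every list. In dpp the best fold was 3.43, 3.52 and 4.38 early and 2.33 and 2.67 late, but its 7 merged regions were each in 1 list. Dll, which Ubx represses in the abdomen, was hit in early R at 3.82 and late R at 2.35 and in no other list of 3015 peaks. The targets had a median of 2 lists per gene, the Hox genes 3, and all genes 0, and these groups have regions of 22.8 and 32.6 kb at the median against 4.16 kb.

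Genes of the mesoderm and its tissues were hit in lists of both stages. Of 8 early mesoderm regulators, 1 (twi) was in every early list and in every list, and 4 (twi, Mef2, zfh1 and how) in both late lists, beside 2.34%, 1.2% and 3.98% of all genes. Their regions are long, 29.1 kb at the median against 4.16 kb. Mef2, which switches on muscle differentiation genes, had no peak in early R, folds of 3.23 and 4.15 in early R2 and S, and 2.49 and 2.82 late. The homeobox genes tin and bap, which specify heart and visceral muscle, had no peak in any list of 3015. Of 22 muscle identity factors none was in every list and 1, Ptx1, in the early lists only, beside 1.2% and 0.387% of all genes. With full lists Ptx1 was in every list, and 3 of the 22 were in every early and 12 in every late list, beside 8.2% and 18.8% of all genes. Of 13 cardiac factors Hand was in the late lists only, beside 0.766% of all genes. Hand, a bHLH factor of heart and visceral muscle, had a fold of 2.27 in late R and 2.67 in late S, and no peak in any early list, full lists included; the late peaks did not overlap each other (2 merged regions, each in 1 list). Hand coverage was 0% early and 3.99% late (limma adjusted p = 0.616).

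For differentiated muscle, kirre and sns (adhesion receptors of myoblast fusion) were hit in all 5 lists among 12 fusion genes, Msp300 (a giant nesprin) among 22 sarcomere genes, and sli (the ligand Slit) among 15 attachment genes, beside 1.2% of all genes and with median regions of 20.2, 9.05 and 16.2 kb. Of the sarcomere genes sls and Zasp52 were also in every early list, and bt and Prm in every late list. Mhc, the muscle myosin heavy chain, had a peak in early R2 only, at 3.35. Counted over the group, 3 of 22 sarcomere genes were in every early list and 3 of 22 in every late list, beside 2.34% and 3.98% of all genes.

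Genes outside the mesoderm were hit as well. The neuroblast factor pros was in every list, with folds of 3.38, 3.07 and 3.92 early and 2.23 and 2.84 late, and elav in none. Among 13 axon guidance genes (median region 37.1 kb) sli, robo3 and Sema1a were in every list and comm in the late lists only, beside 1.2% and 0.766% of all genes. Early-only genes of the other lists were cpx, grh, osa, Egfr and Pxn, 1 in each of its lists, beside 0.387% of all genes. The gene mor was late only, beside 0.766% of all genes. Both osa and mor encode subunits of Brahma chromatin remodelling complexes. With full lists these 5 early-only genes were in every list, and neither mor nor comm was late only. Of 14 housekeeping genes none was in every list of either stage, beside 2.34% of all genes early and 3.98% late. With full lists LanB1, repo and RpL19 were early only, and Hand, ase and ci late only, among the 274 matched names. Of all genes 1.15% were early only and 0.773% late only. The glial gene repo had a region on an exon, chr3R:18236472-18237047, with folds of 3.04, 2.79 and 4.84 early and no late peak.

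Of the 54 genes hit in the early lists only, those with the best ranks were DIP-gamma (an immunoglobulin protein of synaptic recognition; folds 3.75, 3.75 and 4.88), Usp15-31 (a ubiquitin protease; 3.76, 3.61 and 3.87), Cda5 (a chitin deacetylase; 3.68, 3.37 and 4.28) and osy (an ABC transporter; 3.61, 3.66 and 3.64). The serotonin receptor gene 5-HT2A, osa, CG8500 and CG44836 followed. Of the 107 late-only genes, the leading ones were siz (schizo, an Arf exchange factor; folds 2.78 and 2.83), hid (an activator of cell death; 2.35 and 2.91), nuf (a Rab11 partner; 2.39 and 2.79), Prosbeta4R2 (2.45 and 2.75) and 2mit (2.44 and 2.74). Mocs2B, Mocs2A and Clbn, which overlap, share 1 peak per list at 2.34 and 3.02. Which genes fall in these sets depended on single libraries: leaving out 1 list at a time gave 104 to 222 early-only genes and 148 to 815 late-only genes.

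No gene passed a test of its coverage between stages. In limma with a trend on arcsine-transformed coverage, 0 of 5883 genes (0%) passed an adjusted p of 0.05 at equal numbers, and 0 of 12788 with full lists. At an unadjusted p of 0.05 in limma, 41 of the 5883 genes were higher late and 2 higher early at equal numbers. Together they are a smaller share than the threshold of 0.05 itself, so no direction is read from them. With the best-scored 50% of these peaks 3 genes passed, all higher late: w, exd and CG32795. With late R or late S left out more genes passed, but there the lone late list is taken to vary like the early ones, so those counts are not read.

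The lowest p belonged to w (white), which was looked at after its value was seen. It encodes a transporter of eye pigment precursors. At equal numbers, peaks covered 2.00% of its region early and 41.6% late (limma adjusted p = 0.327). In both full late lists, peaks covered 100% of the first coding exon and 100% of the block of the other coding exons (chrX:2790732-2793128), but 6.85% and 11.2% of the first intron between them. With full lists too, early R had no peak there, early R2 covered 45.5% and early S 23.3% of the exon block. All these peaks had low folds for their lists. On the exon block the best fold was 1.76 in late R (rank 9429 of 9865) and 2.17 in late S (rank 11469 of 12237). In early R2 it was 1.98 (rank 43753 of 44627) and in early S 2.51 (rank 8875 of 9415). In all 4 neuronal Ubx lists and all 8 lists of H3K27ac and H3K27me3 in mesoderm, peaks also covered 100% of the first coding exon, with 2.99% to 16.0% of the intron, and the exon ranked 1 by fold in H3K27me3 of early R2. The w gene also serves as the marker of many fly transgenes. Whether these lines carry such a copy is not given in the sources used here, and its part in the result was not tested.

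Peaks lay in exons more often in every early list than in either late list, though the difference did not pass after adjustment. This measure was added after the data were seen. Peak midpoints fell in an exon for 28.3%, 29.4% and 35.4% of early R, R2 and S and for 17.3% and 23.2% of late R and S. All early lists lay above both late lists, 31.0% ± 3.80 (SD, n = 3) against 20.2% ± 4.20 (n = 2), a difference of −10.8 points (late minus early; exact permutation p = 0.1, adjusted 0.38). Without repeat peaks the shares were 38.6% and 25.7% (exact permutation p = 0.1), and with each list left out in turn the difference stayed between −7.79 and −13.7 points. Outside genes the order was the opposite, 38.3% ± 2.83 early and 44.7% ± 5.37 late (exact permutation p = 0.1). Peaks within 1 kb of a start site were 15.7% ± 2.13 early and 13.8% ± 2.32 late (exact permutation p = 0.6), and the groups overlapped.

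The Hox-Exd motif was more frequent in both late lists, though the difference did not pass after adjustment. TGATTNAT lay in the central 200 bases of 3.33%, 2.82% and 2.99% of peaks in early R, R2 and S and of 3.99% and 4.25% in late R and S. Both late lists lay above every early list, 4.12% ± 0.184 against 3.05% ± 0.258 (exact permutation p = 0.1, adjusted 0.38). With the best-scored 50% of peaks the difference was 0.442 points against 1.07 (exact permutation p = 0.3). In no list was it above its surroundings: the windows 1 kb to either side held it at 4.85% to 5.10% early and 4.66% and 4.97% late, and genome tiles at 5.33%. TAATTA was at 12.4%, 9.87% and 9.41% early and 11.6% and 12.7% late (exact permutation p = 0.3), also below its flanks in every list. GCCAT was the motif above its flanks in all 5, at 36.2% to 42.6% of peaks against 32.6% to 35.2%. GAGAG lay at 21.3% to 23.1%, near the 21.4% of genome tiles. Its mean share exceeded that of its flanks by 0.911 points ± 0.929 early and 2.02 ± 0.917 late (exact permutation p = 0.5 between stages).

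The shares of Ubx peaks that lay under chromatin marks gave no single order of the stages. Of the 3015 peaks, the longest H3K27ac list (late mesoderm R2, 18.4% of the genome) overlapped 45.4%, 46.0% and 41.7% in early R, R2 and S and 48.5% and 44.6% in late R and S. The early H3K27ac list R1 (7.89% of the genome) overlapped 20.6%, 20.1% and 24.6% early and 16.7% and 17.9% late, with every early list above both late ones. The longest H3K27me3 list, also late R2 and 5.64% of the genome, overlapped 29.0%, 28% and 25% early and 34% and 29.3% late, and here both late lists lay above the early ones. In the early H3K27me3 list R1 (5.59% of the genome) the order was the reverse, 24%, 25.8% and 24.5% early against 23.3% and 22.5% late. The Ubx peaks of late neurons, a short list covering 0.170% of the genome in R, overlapped 11.5%, 9.12% and 9.29% early and 10.8% and 9.92% late. Without repeat peaks these shares were 2.51%, 1.63% and 2.29% early and 2.59% and 2.02% late. No test was run on these overlaps.

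The folds were lower late at the median and at rank 100, though the single highest fold was higher late. The median fold was 3.06, 3.27 and 3.50 in early R, R2 and S and 2.21 and 2.65 in late R and S, 3.28 ± 0.220 against 2.43 ± 0.313 (exact permutation p = 0.1, adjusted 0.38), with no overlap. The highest fold was 15.6, 15.5 and 19.3 early and 27.7 and 48.9 late, the late maximum being exd in both lists. Rank 2 in late R and S, the spok intron, had 10.4 and 18.7. The fold at rank 100 was 4.02, 4.06 and 4.40 in early R, R2 and S and 2.79 and 3.77 in late R and S. Median width was 100 ± 29.6 bases early and 122.5 ± 21.9 late (exact permutation p = 0.6). In each list the commonest width was also the smallest, 47 to 50 bases, and 12.4% to 35.4% of peaks had it.

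**Figure D4:**
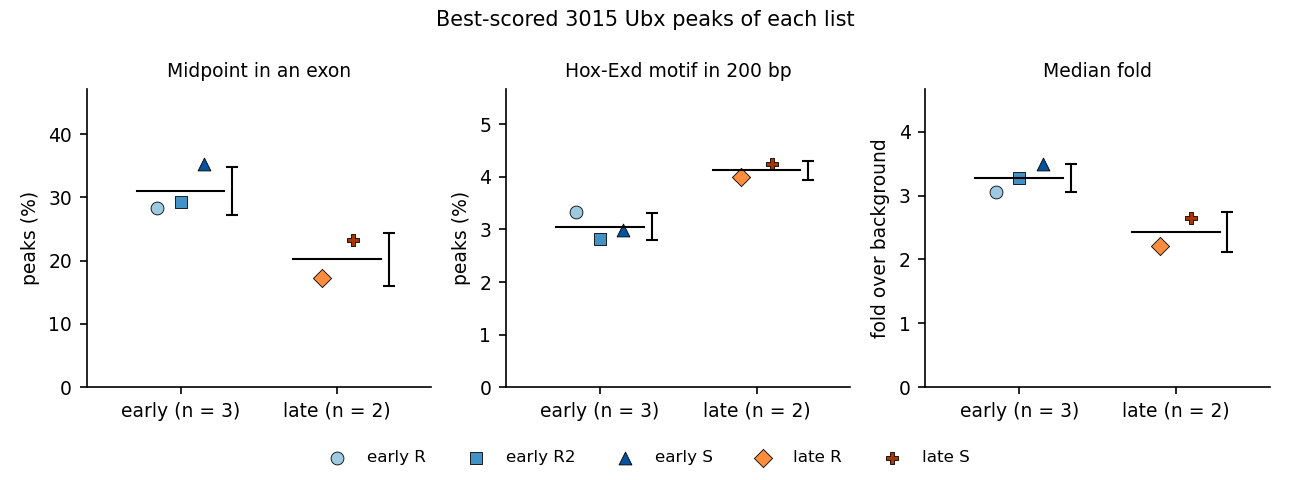
Percentage of peaks with their midpoint in an exon (left), percentage with the Hox-Exd motif TGATTNAT in the central 200 bases (middle) and median fold over background (right), for the best-scored 3015 peaks of each list; lines are group means and bars 1 SD. The early lists lie above the late lists for exons and fold, and below them for the motif.

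Peaks on the X chromosome thinned out below the top ranks, and more so late. At equal numbers X held 12.3%, 15.9% and 12.5% of peaks in early R, R2 and S and 10.6% and 9.72% in late R and S (13.6% ± 2.01 against 10.2% ± 0.657, exact permutation p = 0.1, adjusted 0.38), where X is 17.1% of assembled bases. With full lists the shares were 11.9% ± 2.13 and 5.55% ± 0.162 (exact permutation p = 0.1). In the 1000 best-scored peaks X held 20.8%, 21.5% and 19.3% early and 23.2% and 21.3% late, so the stages overlapped there. In ranks 1001 to 3000 it held 7.95%, 13.1% and 9.15% early and 4.2% and 4% late. Without repeat peaks the difference at equal numbers was −3.95 points (exact permutation p = 0.3), at 6.99%, 14.2% and 8.22% early and 6.07% and 5.67% late, so every early list still lay above both late ones.

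**Figure D5:**
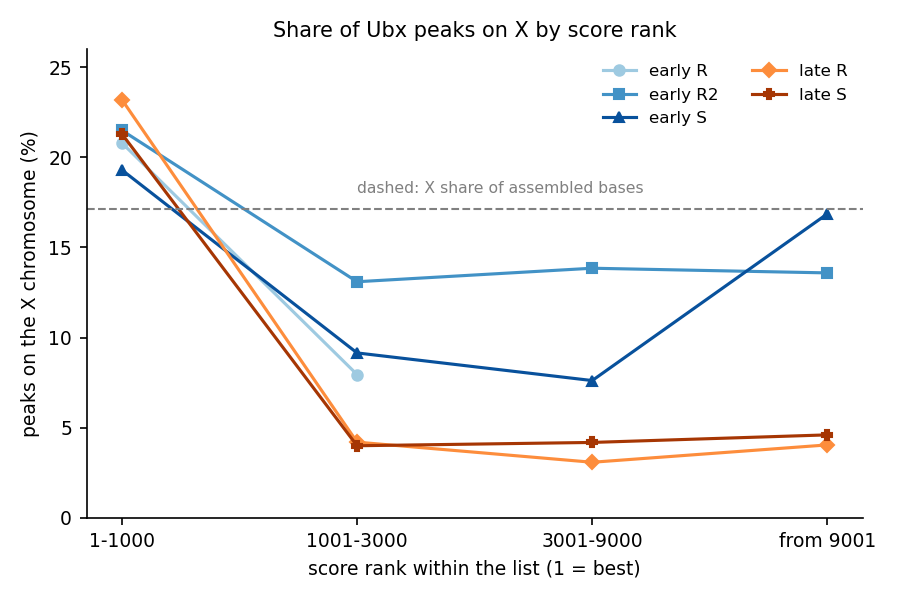
Percentage of Ubx peaks on the X chromosome (vertical axis) by score rank within each list (horizontal axis, 1 is best); early R ends at rank 3015 and the last early S point rests on 415 peaks. All lists start between 19.3% and 23.2%, and from rank 1001 on both late lists lie between 3.08% and 4.60%, below every early list.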

How the data were processed

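Ubx was mapped by ChIP-seq in sorted mesoderm nuclei. Per the submitters' processing notes, reads were checked with FastQC, aligned to dm6 with Bowtie and called with MACS2; versions, and whether input served as background, are not given in the sources used here. The authors deposited, per peak, a score, a fold ratio over background, and −log10 p and q values; the score equals 10 times the −log10 q as a whole number, within 1. Peaks were ranked by score, with ties by fold, and cut to 3015 per list. Ensembl's gene models on the same assembly gave 13968 protein-coding genes, each taken with 2 kb upstream; a start site window is 1 kb to either side. Lists were compared by exact permutation of the 5 lists (10 arrangements), with Benjamini-Hochberg adjustment over 76 tests, and gene coverage by limma 3.58.1 in R 4.3.3. Both kinds of test were checked on simulated data. The coverage simulated for limma had normal noise of 1 size around gene means. In the real lists most regions lie in 1 list, so that check does not vouch for limma on these data. The rest was done with numpy 2.4.6, pandas 2.3.3 and scipy 1.17.1. A multicopy region has at least 50% of its 25-base words elsewhere in the assembled chromosomes. Named genes were 22 chosen genes, then, at equal numbers, up to 8 genes in every list and up to 8 per stage-only direction by mean fold rank, leaving out those that rest on repeat peaks. Members, gene lists and tests were chosen with earlier results of these data known, 26 gene lists in all, with 274 of 276 names matched. The measures of exons, X, TGATTNAT, fold, copies and tandem repeats, and the setting without early R2, were added after seeing the data. Alternatives were full lists, ranking by fold, no repeat peaks, the best-scored 50%, narrower gene windows, a replicate block and each list left out.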

Additional observations from a re-analysis of the deposited data

How the results depend on the processing

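Of 147 comparisons of a result with an alternative, 114 kept their sign (differences) or stayed within 1.5 times (counts), 24 counts moved by more than 1.5 times and 9 differences changed sign. The late minus early differences in exon share, X share, TGATTNAT, median fold and width kept their sign in every alternative run, but not always their size: that in X share was −0.653 points with the best-scored 50% and −6.34 with full lists, that in TGATTNAT 0.442 with the best-scored 50%, and that in width 5.5 to 38 bases with each list left out. The percentage of genes hit turned to 10.5 points with full lists without early R2. The start site difference turned to 0.102 with full lists, 0.254 with full lists without early R2 and 0.0442 within 500 bases, and that of TAATTA to −0.0607 with full lists without early R2. Sharing within minus between stages was −0.598 with peaks chosen by fold and −0.0691 with the best-scored 50%, and lay between −1.96 and 1.83 with each list left out. Genes in early lists only numbered 160 with full lists, 21 with the best-scored 50%, 176 with full lists without early R2, 1 with a window of 1 kb around the start, and 104 to 222 with each list left out. Genes in late lists only numbered 34, 744, 29 and 148 to 815 in the same alternatives beyond the full lists. Genes in every list numbered 703 with full lists, 93 without repeat peaks, 65 with the best-scored 50%, 714 with full lists without early R2 and 9 with the start window. In limma 3 genes passed with the best-scored 50%, and 0 to 821 with each list left out. With a replicate block on R and S, without early R2, 5 genes passed in limma (w, exd, CG32795, CG43798 and CG46312) with 1 residual degree of freedom, and the difference in genes hit was −2.35 points (exact p = 0.5, the smallest it allows). The deviations of R and S at the 2 stages correlated at 0.0174 over 5883 genes. With 93.3% of merged regions in 1 list, this value cannot tell whether lists of the same letter have anything in common. The causes were not tested. With 3 against 2 lists no list test can pass 0.05, and read depth is unknown.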
